A study of Mus musculus with 8 samples.

Results

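Circular RNAs of Rbm20, Qk and Mbnl1, genes of proteins that regulate splicing, were examined in mouse hearts after transverse aortic constriction (TAC) and after a sham operation. In most circular RNAs, or circles, splicing runs backwards and joins an exon's 3′ border with the 5′ border of that exon or of one before it. An intronic circle lies within an intron instead and joins no exon borders. A read across the joint of either kind, here called a back-spliced read, is the unit counted. The circles were every entry of the deposited table whose gene name was Rbm20, Qk or Mbnl1. That gave 29 of 27391 circles, of which 8 came from Rbm20, 10 from Qk and 11 from Mbnl1. They held 1236 of 254236 back-spliced reads (0.486%). The 4 TAC hearts and the 4 sham hearts came from male mice labelled WT and were collected 8 weeks after surgery, with 1 library per heart. TAC places a constriction on the aortic arch and so loads the left ventricle with pressure. The comparison asks how circles differ between TAC and sham hearts. The labels used here give no age.

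RBM20 is an RNA-binding protein of striated muscle that holds back exons of titin and other sarcomere and calcium-handling genes, and its loss alters titin isoforms and removes circles that arise from titin's spring region. Mutations of human RBM20 cause dilated cardiomyopathy. QKI, the product of Qk, is a STAR-family protein that binds RNA with the core ACUAAY and, in human cells, promotes circle formation when its sites lie in the introns on both sides of the circling exons. MBNL1 is a zinc-finger protein that drives the switch from fetal to adult splicing in heart and skeletal muscle. In Drosophila the orthologue muscleblind binds its own transcript and promotes a circle from it.

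The libraries differed widely in depth, and 2 of the 8 stood apart from their groups. TAC replicates 1, 3 and 4 had 21074 to 36120 reads and sham replicates 1, 3 and 4 had 17890 to 100142, while TAC replicate 2 had 1119 and sham replicate 2 had 3963. Over 3735 circles, TAC replicate 2 correlated at 0.18 with the mean of TAC replicates 1, 3 and 4 and at 0.294 with that of sham replicates 1, 3 and 4. Sham replicate 2 correlated at 0.252 with that sham mean and at 0.423 with that TAC mean (Pearson, log2 scale, a description). The same means, less the library itself, served for the other 6 libraries. These correlated at 0.61 to 0.702 with their own group and at 0.268 to 0.473 with the other. Results are therefore given with 8 libraries and with the 6 others. Since these correlations compare the groups, leaving the 2 libraries out itself favours a separation of TAC and sham. The p-values over 6 libraries do not allow for that choice. The deposited values are reads divided by 1 size factor per library, and 1 read was worth 5.77 normalised reads in TAC replicate 2, 4.54 in sham replicate 2 and 0.195 to 1.03 in the other libraries. Circle length also moved with the groups over the 6 deeper libraries, but not in TAC replicate 2 and sham replicate 2. At the median read, circles were 543, 334, 519 and 499 nt long in TAC replicates 1 to 4, against 394, 492, 369 and 353 nt in sham replicates 1 to 4.

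The joints below are those of the 8 circles detected in at least 4 libraries, and they show which exon ends were used. Each has the last 15 bases of the circle in lower case and its first 15 bases in capitals, 5′ to 3′ on the strand of the gene, from GENCODE M21 exons in mm10.

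Rbm20 exons 2-5, chr19:53813248-53818020, plus strand: tcctctgggacaagtTGCTGCCAAGCTCCT
Rbm20 exons 2-7, chr19:53813248-53834779, plus strand: gaattgcagctgaagTGCTGCCAAGCTCCT
Rbm20 exons 10-12, chr19:53850102-53853635, plus strand: ttagcattcctctagGCTGGAGCTGAGGAA
Qk exons 2-4, chr17:10238893-10282981, minus strand: ttactggtacctgcgAAATTAGCAGAGTAC
Qk exons 2-3, chr17:10273947-10282981, minus strand: agggataaaaagaagAAATTAGCAGAGTAC
Qk exons 3-4, chr17:10238893-10274063, minus strand: ttactggtacctgcgTTTAATTTTGTTGGG
Qk exons 5-7, chr17:10213359-10217803, minus strand: tgaccgcagaccgagGCTGAAGGTGAAGAC
Mbnl1 exons 2-3, chr3:60595594-60603894, plus strand: acagacagactggagGGTCGTTGCTCCAGA

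The Rbm20 circles of exons 2-5 and 2-7 share the capitals, since both begin at exon 2 and differ in the exon end that is joined to it. The Qk circles of exons 2-4 and 2-3 share their start in the same way, and the Qk circles of exons 2-4 and 3-4 share their end.

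Of the 29 circles, 25 joined annotated exon ends and 4 were intronic. Most were rare. 8 rested on 1 read in all, 15 on 3 or fewer, and 12 were seen in 1 library only. 13 were seen only in TAC libraries and 4 only in sham libraries (44.8% and 13.8% of the 29), where 48.0% and 24.6% of all circles in the table were so. The limma test was run on circles above 0 in at least 4 of 8 libraries, which 13.6% of all circles and 8 of the 29 met, so 21 are described by their reads alone.

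**Figure D1:**
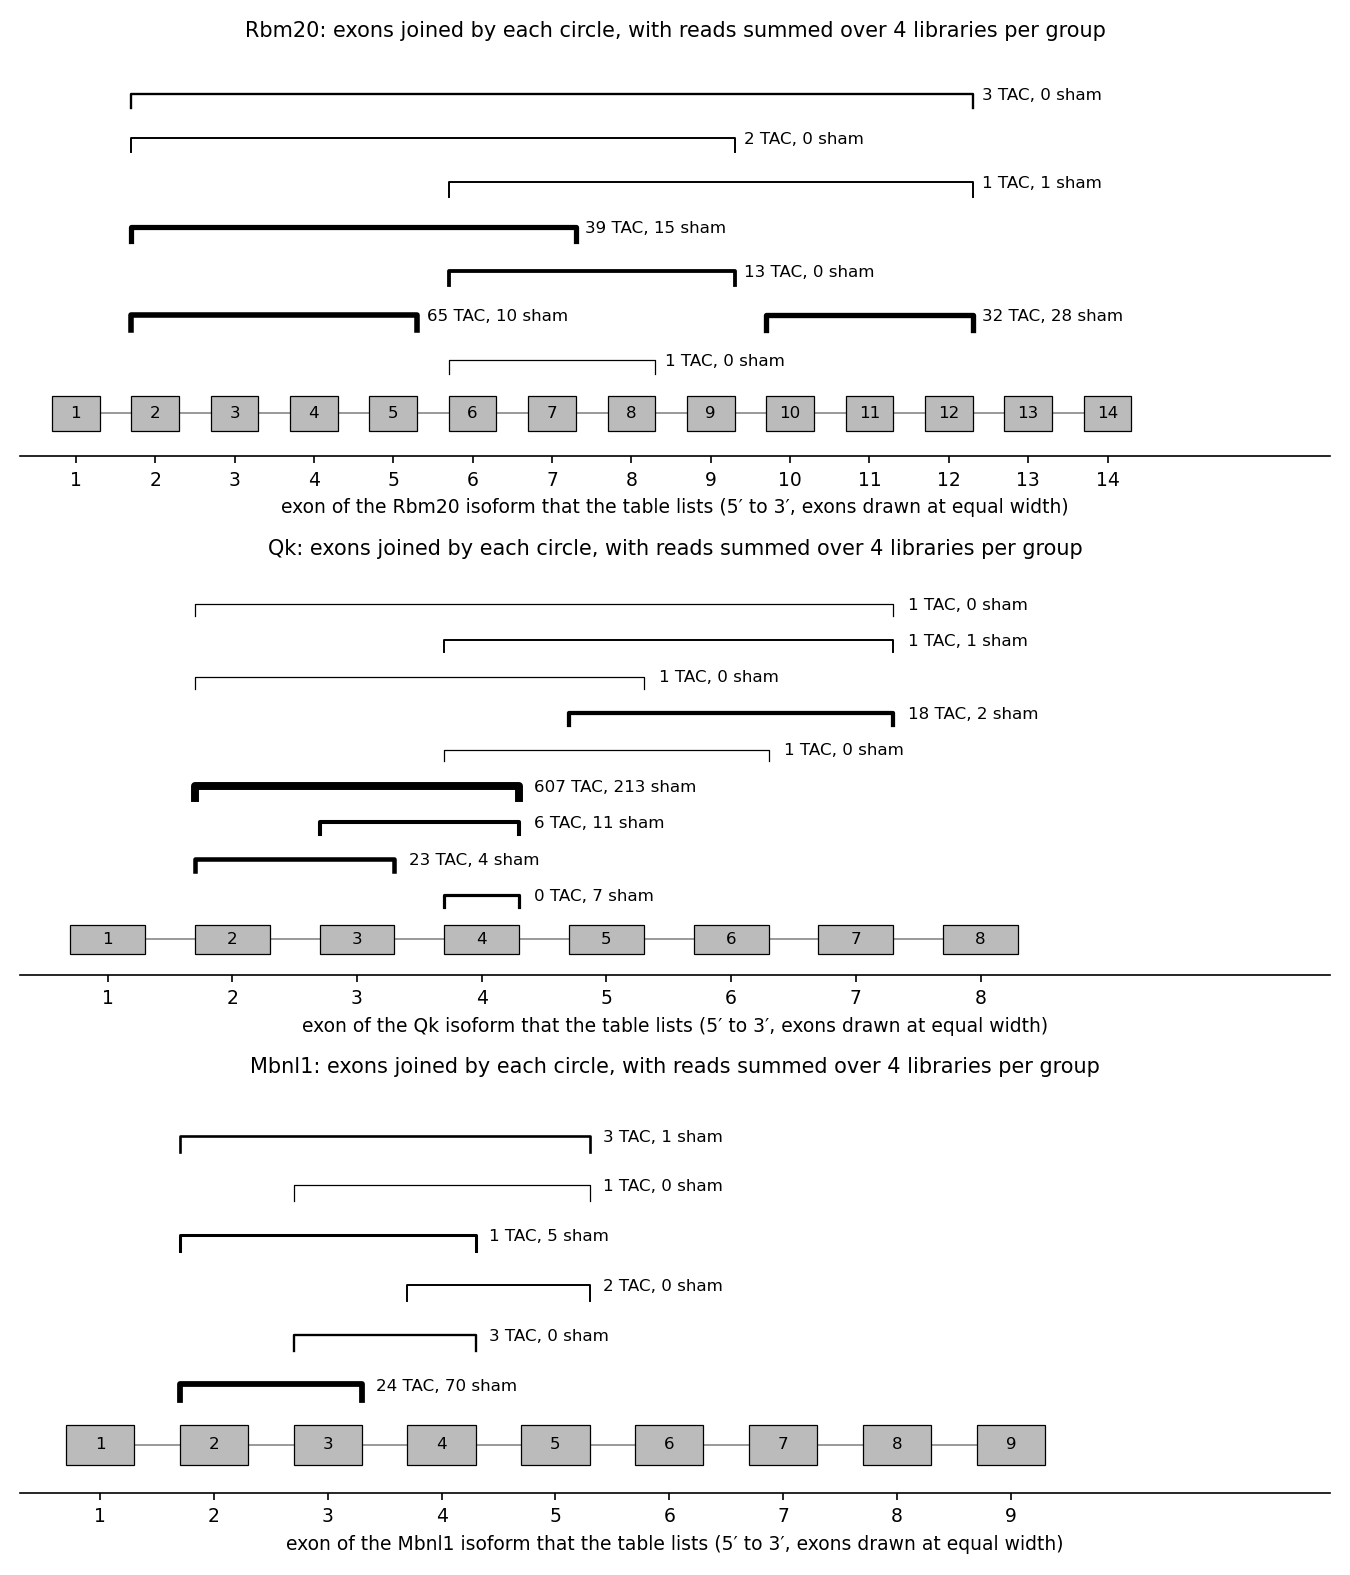
Exons of the Rbm20, Qk and Mbnl1 isoforms that the table lists (grey boxes, 5′ to 3′, equal width) and the exons that each circle joins (brackets, thicker with more reads), with reads summed over 4 TAC and 4 sham libraries. The 4 intronic circles and the 2 Mbnl1 circles that begin at another exon 2, of a longer isoform, are not drawn. No drawn circle used exon 1 or the last exon, and most reads of Qk and Mbnl1 fell on 1 circle each.

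Rbm20 circles arose from 3 starting exons of the 14 exons of the listed isoform, which codes for 1199 residues, and all lay in coding sequence. Exon 2 was the start of 4 circles with 134 reads (63.8% of the gene's 210), exon 10 of 1 circle with 60 reads (28.6%), and exon 6 of 3 circles with 16 reads (7.62%). The circle of exons 2-5 spans 1345 nt and codons 62 to 510, upstream of the RNA recognition motif. Exons 2-7 span 1621 nt and codons 62 to 602, and include the exons that encode that motif. Exons 10-12 span 859 nt and codons 837 to 1123, downstream of the arginine-serine-rich stretch in which human cardiomyopathy mutations cluster, a stretch encoded by exon 9.

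The circle of exons 2-5 had the most reads of Rbm20, 65 in TAC and 10 in sham libraries. It stood at 17.1, 5.77, 18.5 and 14.6 normalised reads in TAC replicates 1 to 4, against 0.758, 18.2, 3.31 and 0 in sham replicates 1 to 4. TAC replicates 1, 3 and 4 lay together, sham replicate 2 lay among them on 4 reads, and TAC replicate 2 rested on 1 read, so the groups overlapped. The means were 14.0 ± 5.72 in TAC and 5.56 ± 8.53 in sham (SD, n = 4 each), with a log2 fold change of 2.81 ± 1.49 (SE; limma adjusted p = 0.834). The edgeR quasi-likelihood test on the recovered reads gave 2.69 ± 0.83 (adjusted p = 0.0195). That call was lost without any 1 of TAC replicates 1, 3 and 4 or sham replicates 1, 3 and 4 (adjusted p 0.121 to 0.304), and with DESeq2 (log2 fold change 1.94, adjusted p = 0.447).

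Without TAC replicate 2 and sham replicate 2 the circle of exons 2-5 was higher in TAC. Its means were 16.8 ± 1.97 in TAC and 1.36 ± 1.74 in sham (SD, n = 3 each), with a log2 fold change of 4.28 ± 0.73 by limma (adjusted p = 4.22e-07) and 4.06 ± 0.84 by edgeR (adjusted p = 0.00267). The call did not hold once the length trend of each library was taken out. With the trend as an offset in edgeR, a fit added after the data were seen, the log2 fold change over the same 6 libraries was 1.61 ± 0.85 (adjusted p = 0.2). Sham replicate 4, the deepest library, had no read of this circle among its 23 Rbm20 reads.

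Exons 2-7 stood at 9.67, 0, 15.4 and 6.996 normalised reads in TAC replicates 1 to 4, against 0.379, 13.6, 2.48 and 1.56 in sham replicates 1 to 4. TAC replicates 1, 3 and 4 exceeded sham replicates 1, 3 and 4, and sham replicate 2 again lay among the TAC libraries. The means were 8.03 ± 6.41 in TAC and 4.51 ± 6.14 in sham (SD, n = 4 each), with a log2 fold change of 0.63 ± 1.58 (limma adjusted p = 0.977). Over the 6 libraries it was higher in TAC by 2.90 ± 0.74 with limma (adjusted p = 0.00192) and 2.76 ± 0.69 with edgeR (adjusted p = 0.00833). With the length offset in edgeR the value was -0.02 ± 0.73 (adjusted p = 0.987). The circle had 1, 3 and 8 reads in sham replicates 1, 3 and 4. The depth-scaled minimum count of edgeR was met in enough libraries only through TAC reads. The edgeR call of this circle is therefore not separate support.

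Exons 10-12, the shortest of the 3, stood at 6.69, 0, 7.21 and 10.2 normalised reads in TAC replicates 1 to 4, against 2.28, 0, 5.80 and 2.92 in sham replicates 1 to 4. Its 32 TAC and 28 sham reads gave means of 6.02 ± 4.30 and 2.75 ± 2.39 (SD, n = 4 each) and a log2 fold change of 0.88 ± 1.603 (limma adjusted p = 0.957). It did not pass over the 6 libraries either, at 1.17 ± 0.64 (limma adjusted p = 0.205), and with the length offset in edgeR the value was -0.78 ± 0.62 (adjusted p = 0.413).

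The start exons of Rbm20 circles were used in different proportions by the libraries. Exon 2 started 67.2, 100, 79.1 and 64.8% of Rbm20 back-spliced reads in TAC replicates 1 to 4, against 33.3, 87.5, 50.0 and 34.8% in sham replicates 1 to 4. TAC replicate 2 had a single read. The 3 deeper TAC libraries lay above the 3 deeper sham libraries, and sham replicate 2 above those 3 TAC libraries. The share is not affected by a library's size factor, but the leading exon 2 circles, of 1345 and 1621 nt, are longer than the exons 10-12 circle of 859 nt. Over the 6 deeper libraries length moved with the groups, and the part of length in this share was not tested. A further circle, of exons 6-9 (978 nt, codons 511 to 836), which holds the exons of both the RNA recognition motif and the arginine-serine-rich stretch, had 9, 0, 1 and 3 reads in TAC replicates 1 to 4 and 0 in each sham library. A count of 0 in 162791 sham reads allows up to 3 reads, and the circle was in too few libraries for the limma test. The remaining 4 Rbm20 circles had 1 to 3 reads each.

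**Figure D2:**
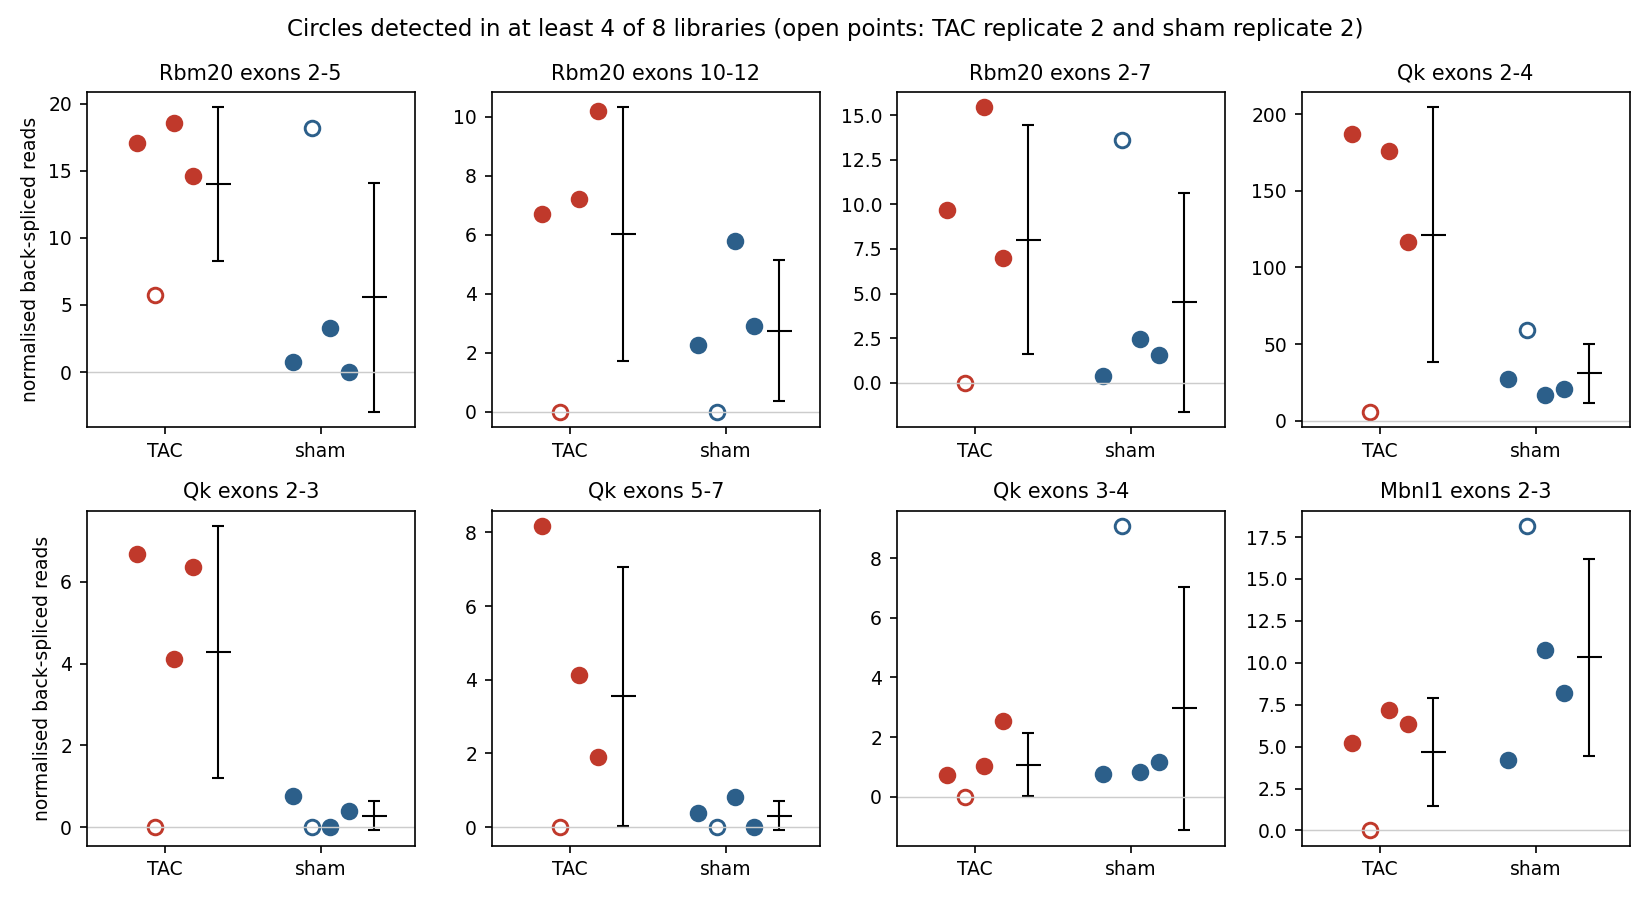
Normalised back-spliced reads of the 8 circles detected in at least 4 libraries, 1 point per library (TAC left, sham right; open points are TAC replicate 2 and sham replicate 2), with the mean and SD of 4 libraries as a bar. The 3 filled TAC points lie above the 3 filled sham points for the 3 Rbm20 circles and for Qk exons 2-4, 2-3 and 5-7, and the groups overlap for Qk exons 3-4 and Mbnl1 exons 2-3.

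Qk ranked 13th of 6492 host genes by its summed circles, against 128th for Rbm20 and 384th for Mbnl1, on the scale of normalised reads, which is not corrected for length. 1 circle made up most of it. The circle of exons 2-4 had 820 of the gene's 907 reads (90.4%), spans 404 nt of the 8-exon listed isoform, and covers codons 48 to 182 of 341, a stretch that holds the RNA-binding KH domain. 4 circles began at exon 2 (93.6% of reads) and 3 ended at exon 4 (93.1%). Across libraries the circle of exons 2-4 held 91.6, 100 (1 read), 94.0 and 91.5% of Qk reads in TAC replicates 1 to 4, against 91.1, 86.7, 90.9 and 81.2% in sham replicates 1 to 4. Only in sham replicate 4 did the 95% Wilson interval (73.7 to 86.9%) lie below the values of the other deep libraries.

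Qk exons 2-4 stood at 187, 5.77, 176 and 116 normalised reads in TAC replicates 1 to 4, against 27.3, 59.1, 16.6 and 21.0 in sham replicates 1 to 4. TAC replicates 1, 3 and 4 exceeded every sham library, and TAC replicate 2, with 1 read, lay below every sham library. The means were 121 ± 83.1 in TAC and 31.0 ± 19.2 in sham (SD, n = 4 each), with a log2 fold change of 1.33 ± 0.78 (limma adjusted p = 0.834) and 1.97 ± 0.83 with edgeR (adjusted p = 0.0895). Without TAC replicate 2 alone it was higher in TAC, at 2.51 with limma (adjusted p = 1.7e-07) and 2.48 with edgeR (adjusted p = 0.00399). Over the 6 deeper libraries the means were 159.9 ± 38.1 in TAC and 21.6 ± 5.40 in sham (SD, n = 3 each), and the log2 fold change was 2.87 ± 0.35 with limma (adjusted p = 1.71e-13) and 2.66 ± 0.40 with edgeR (adjusted p = 0.000337). It kept its size and its call with the length offset over these 6 libraries, at 2.73 ± 0.34 (edgeR adjusted p = 0.000106). Over all 8 libraries with the length offset it was 1.94 ± 0.62 (edgeR adjusted p = 0.0934).

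The circle of exons 2-3, 260 nt, lacks exon 4. It stood at 6.69, 0, 4.12 and 6.36 normalised reads in TAC replicates 1 to 4, against 0.758, 0, 0 and 0.389 in sham replicates 1 to 4, on 23 TAC and 4 sham reads. Its log2 fold change was 2.70 ± 1.52 with 8 libraries (limma adjusted p = 0.834). Over the 6 deeper libraries, where TAC and sham did not overlap, it was higher in TAC at 3.60 ± 1.08 (limma adjusted p = 0.0128) and 3.37 ± 0.94 (edgeR adjusted p = 0.0142), and with the length offset at 4.78 ± 0.97 (edgeR adjusted p = 0.00365). It had 9, 4 and 10 reads in TAC replicates 1, 3 and 4, against 2, 0 and 2 in sham replicates 1, 3 and 4. Only through those TAC reads did it meet the minimum count of edgeR, so its edgeR calls are not separate support. On 8 libraries edgeR did not test it. Exons 5-7, 463 nt, stood at 8.18, 0, 4.12 and 1.91 in TAC replicates 1 to 4, against 0.379, 0, 0.828 and 0 in sham replicates 1 to 4. TAC replicates 1, 3 and 4 again exceeded every sham library, but the circle missed the threshold, at 2.34 ± 1.49 with 8 libraries (limma adjusted p = 0.834) and 3.13 ± 1.16 with 6 (limma adjusted p = 0.0564).

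Exons 3-4 of Qk, 261 nt, stood at 0.744, 0, 1.03 and 2.54 normalised reads in TAC replicates 1 to 4, against 0.758, 9.09, 0.828 and 1.17 in sham replicates 1 to 4. The sham mean was set by the 2 reads of sham replicate 2, and the log2 fold change was -1.08 ± 1.58 with 8 libraries (limma adjusted p = 0.939) and 0.41 with the 6 deeper ones (limma adjusted p = 0.866). Exon 4 alone, 144 nt, had 0 TAC reads and 7 sham reads, 6 of them in sham replicate 4. An intronic circle of 685 nt at chr17:10215475-10216159 had 11 reads, all in sham replicate 4. It begins at the 5′ splice site of the 2726 nt intron after exon 6. Both rest on the library with the most reads, and neither was in enough libraries to be tested. The remaining 4 Qk circles had 1 or 2 reads each.

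Mbnl1 also had 1 leading circle. The circle of exons 2-3 of the listed isoform, 372 nt, held 94 of the gene's 119 reads (79.0%). It covers 102 nt of 5′ UTR and codons 1 to 90 of 289. It stood at 5.20, 0, 7.21 and 6.36 normalised reads in TAC replicates 1 to 4, against 4.17, 18.2, 10.8 and 8.17 in sham replicates 1 to 4. The groups overlapped, since sham replicate 1 lay below TAC replicates 1, 3 and 4. The means were 4.69 ± 3.23 in TAC and 10.3 ± 5.90 in sham (SD, n = 4 each), with a log2 fold change of -1.79 ± 1.48 (limma adjusted p = 0.842) and -0.85 ± 0.73 with edgeR (adjusted p = 0.468). Over the 6 deeper libraries the means were 6.26 ± 1.004 in TAC and 7.70 ± 3.32 in sham (SD, n = 3 each), and the log2 fold change was -0.20 ± 0.59 (limma adjusted p = 0.865), a difference not detectable at this depth.

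Of the other 10 Mbnl1 circles, 7 were exonic with 1 to 6 reads and 3 were intronic with 1 or 2 reads. The circle of exons 2-4 had 1 TAC read and 5 sham reads, all 5 in sham replicate 4. A circle of 1 exon, the upstream first coding exon of a longer isoform (1049 nt at chr3:60528756-60529804, mostly 5′ UTR), had 2, 0, 1 and 1 reads in TAC replicates 1 to 4 and 0 in each sham library. The leading circle held 41.2, 77.8 and 71.4% of Mbnl1 reads in TAC replicates 1, 3 and 4, against 100, 80.0, 92.9 and 85.7% in sham replicates 1 to 4. The 95% Wilson interval of TAC replicate 1, 21.6 to 64.0% on 17 reads, lay below those of sham replicate 1 (74.1 to 100%), sham replicate 3 (68.5 to 98.7%) and sham replicate 4 (73.3 to 92.9%). Those of TAC replicate 3 (45.3 to 93.7%) and TAC replicate 4 (45.4 to 88.3%) met all of the sham intervals, and TAC replicate 2 had no Mbnl1 read.

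Counted together, 0 of the 8 circles passed with limma on 8 libraries, where 0.0268% of 3735 circles did, and 0 had an unadjusted p under 0.05, where 4.07% did. The edgeR test called 1 of 5, Rbm20 exons 2-5, against a background of 13.1% of 717 circles, and DESeq2 called 0 of 6, where 1.68% passed. Over the 6 deeper libraries limma called 4 of 8 higher in TAC and 0 lower, where it called 8.13% of all tested circles higher and 3.52% lower. On these libraries edgeR called 4 of 6 higher and 0 lower, where it called 16.4% higher and 13.6% lower. These were Rbm20 exons 2-5 and 2-7 and Qk exons 2-4 and 2-3 in both. With the length trend taken out over these libraries, 2 of 6 were called by edgeR, where 8.78% of all circles were called higher, and 2 of 8 by limma, where 2.75% were, in both cases Qk exons 2-4 and 2-3. Both of these fits were added after the data were seen. Rbm20 exons 2-5 and 2-7 and Qk exons 2-3 met the minimum count of edgeR in enough libraries only through their TAC reads. Their edgeR calls are therefore not separate support. All TAC values exceeded all sham values for 0 of 8 circles with 8 libraries (0.884% of all circles) and for 6 of 8 with 6 libraries (22.8%). The median log2 fold change of all tested circles was itself 0.15 with 8 libraries and 0.45 with 6 (limma).

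**Figure D3:**
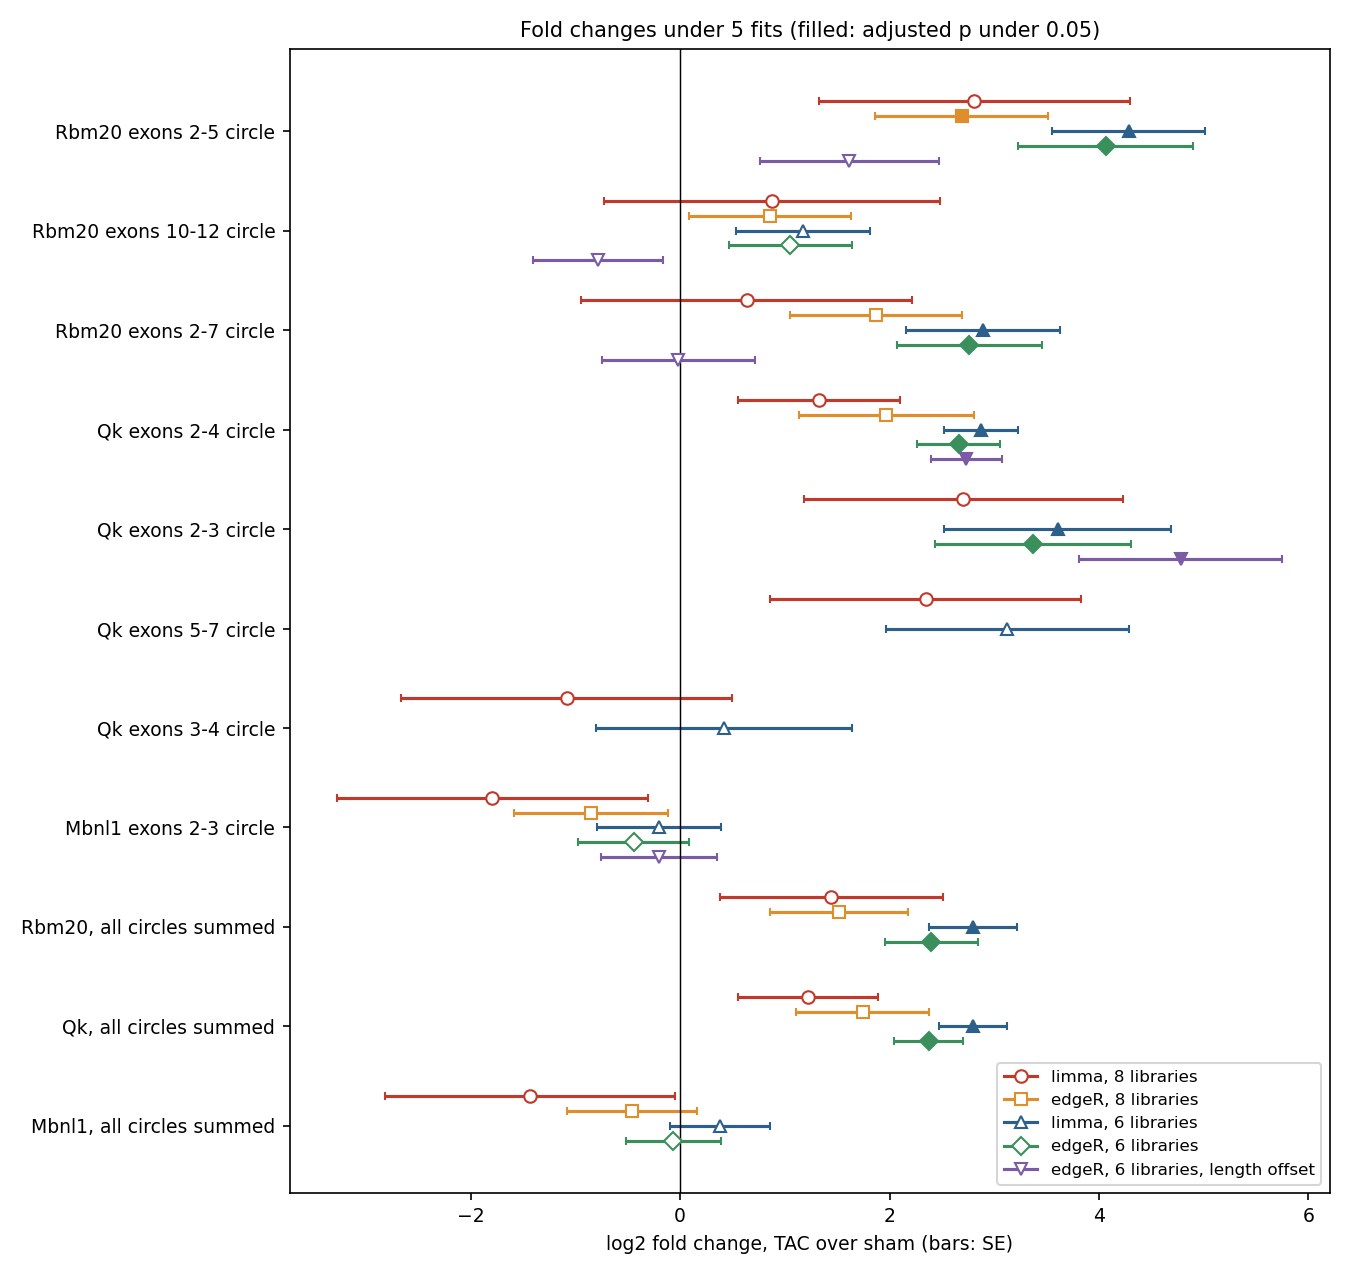
Log2 fold change of TAC over sham (x axis; bars, SE) for the 8 circles and the 3 gene sums under 5 fits, with filled markers where the adjusted p was under 0.05. Markers to the right of 0 are higher in TAC. The gene sums have no fit with the length offset. The Qk circles of exons 2-4 and 2-3 stay filled with the length offset, at 2.73 and 4.78, while the 3 Rbm20 circles move to 1.61, -0.78 and -0.02.

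Summed over all circles of a gene, Qk stood at 204.5, 5.77, 187 and 127 normalised reads in TAC replicates 1 to 4, against 30.0, 68.1, 18.2 and 25.9 in sham replicates 1 to 4. The log2 fold change was 1.22 ± 0.67 with limma (adjusted p = 1) and 1.74 ± 0.64 with edgeR (adjusted p = 0.0654), and DESeq2 called it at 1.74 (adjusted p = 0.048). With the 6 deeper libraries it was 2.8 ± 0.33 (limma adjusted p = 1.17e-09) and 2.37 ± 0.33 (edgeR adjusted p = 0.000173). Rbm20 stood at 43.1, 5.77, 44.3 and 34.3 in TAC replicates 1 to 4, against 3.41, 36.3, 11.6 and 4.47 in sham replicates 1 to 4. Its log2 fold change was 1.44 ± 1.07 with limma (adjusted p = 1) and 1.52 ± 0.66 with edgeR (adjusted p = 0.134), and over the 6 libraries 2.8 ± 0.42 (limma adjusted p = 6.95e-07) and 2.40 ± 0.45 (edgeR adjusted p = 0.00157). Mbnl1 stood at 12.6, 0, 9.26 and 8.90 in TAC replicates 1 to 4, against 4.17, 22.7, 11.6 and 9.53 in sham replicates 1 to 4, and passed in neither set of libraries, at -1.43 ± 1.38 (limma adjusted p = 1) with 8 and 0.38 ± 0.48 (limma adjusted p = 0.651) with 6. Of all hosts tested, limma called 0.0337% with 8 libraries and 12.4% with 6, edgeR 8.24% and 21.6%, and DESeq2 7.29% with 8. No length trend was taken out of the gene sums, so their calls are not adjusted for circle length.

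As a share of all back-spliced reads of a library, which needs no size factor, Qk circles took 0.83, 0.0894, 0.864 and 0.554% in TAC replicates 1 to 4, against 0.194, 0.379, 0.123 and 0.133% in sham replicates 1 to 4. The 95% Wilson intervals of TAC replicates 1, 3 and 4, from 0.482 to 0.998% in all, did not meet those of sham replicates 1, 3 and 4, from 0.0812 to 0.241%. The share of all hosts that separate in this way is not given here. By normalised values, these TAC libraries all exceeded these sham libraries for 22.8% of tested circles. The intervals of the shallow libraries were wide, 0.0158 to 0.504% in TAC replicate 2 and 0.23 to 0.624% in sham replicate 2. Rbm20 circles took 0.175, 0.0894, 0.204 and 0.15% in TAC replicates 1 to 4, against 0.0221, 0.202, 0.0783 and 0.023% in sham replicates 1 to 4. Mbnl1 circles took 0.0513, 0, 0.0427 and 0.0388% in TAC replicates 1 to 4, where the 0 of 1119 reads allows up to 0.268%, against 0.027, 0.126, 0.0783 and 0.0489% in sham replicates 1 to 4. Intervals and floors cover counting error only, since amplified reads are not independent molecules.

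**Figure D4:**
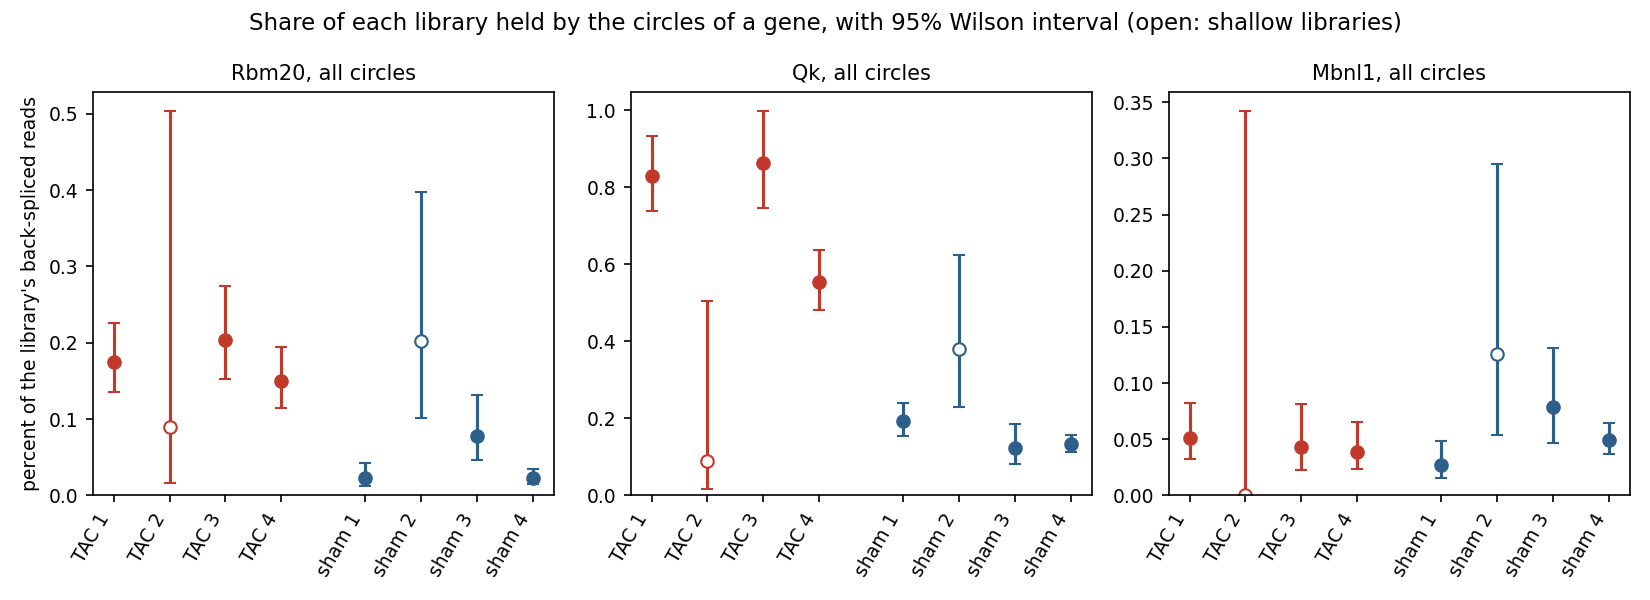
Percent of each library's back-spliced reads that came from all circles of Rbm20, Qk or Mbnl1 (points; bars, 95% Wilson interval; open points, TAC replicate 2 and sham replicate 2). For Qk the filled TAC points lie between 0.554 and 0.864% and the filled sham points between 0.123 and 0.194%; for Mbnl1 the groups overlap.

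The leading circles of Qk and Mbnl1 are close in length, 404 and 372 nt, and can be set against each other within a library. The ratio of Qk exons 2-4 reads to Mbnl1 exons 2-3 reads was 36.0, 24.4 and 18.3 in TAC replicates 1, 3 and 4, against 6.55, 3.25, 1.54 and 2.57 in sham replicates 1 to 4. TAC replicate 2 had 1 read of the Qk circle and 0 of the Mbnl1 circle. Every TAC library with a ratio exceeded every sham library, sham replicate 2 included. The ratio shows unequal change and not which of the circles changed, and it was not tested.

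Sequences that QKI is known to bind were searched in the exons of the circles, as ACTAAC or ACTAAT on the strand of the gene, the core of the site written as DNA. The introns beside the circles were not analysed here. Exon 4 of Qk holds 1 match, which 7 Qk circles with 849 reads include, the circle of exons 2-4 among them. Exon 6 of Rbm20 holds 2 matches, which 6 Rbm20 circles with 75 reads include. The upstream first coding exon of Mbnl1 holds 1, which 2 Mbnl1 circles with 5 reads include. The Rbm20 circle of exons 2-5, the Qk circle of exons 2-3 and the Mbnl1 circle of exons 2-3 hold none. The windows show 12 bases on each side in lower case and the match in capitals.

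Qk exon 4, chr17:10238975-10238980, minus strand: agacttacatgtACTAATcactgtggaaga
Rbm20 exon 6, chr19:53832757-53832762, plus strand: tttggcaaggtcACTAATtacatcctcatg
Rbm20 exon 6, chr19:53832781-53832786, plus strand: ctcatgaagtcaACTAATcaggctttcttg

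Among circles within 20% of the length, 6.49% of 7237 hold such a match for Qk exons 2-4. The share was 21.6% of 1382 for Rbm20 exons 2-7, which had 54 of the 75 reads, and 15.2% of 3714 for Rbm20 exons 6-9. Over the 6 Rbm20 circles with a match it ran from 5.82% (exons 6-8) to 39.5% (exons 2-12). A match is a string of letters and not a site of binding.

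Other splicing regulators hosted circles too, and none of their sums passed on 8 libraries with limma or edgeR. Of 78 listed genes 59 hosted a circle, and limma on 8 libraries tested 29 host sums and called 0, with 0 at an unadjusted p under 0.05 (3.03% of all hosts). The edgeR test took in 5 and called 0, with 3 at an unadjusted p under 0.05 (24.0% of all hosts). The median log2 fold change was 0.44 with limma (all hosts 0.13) and -1.13 with edgeR (all hosts -0.03). The 4 with the largest means were Rbms1, Rbm33, Ptbp3, a relative of the polypyrimidine tract-binding protein, and Fxr2, a relative of the fragile X protein. Rbms1 averaged 24.3 ± 16.9 normalised reads in TAC and 61.4 ± 36.1 in sham (SD, n = 4 each; edgeR adjusted p = 0.057), and Rbm33 averaged 26.4 ± 17.8 in TAC and 11.9 ± 16.3 in sham (SD, n = 4 each; edgeR adjusted p = 0.0793). Ptbp3 averaged 9.34 ± 2.88 in TAC and 19.2 ± 7.70 in sham, and Fxr2 averaged 6.51 ± 4.16 in TAC and 8.32 ± 12.8 in sham (SD, n = 4 each). Over the 6 deeper libraries edgeR called 2 of 10 higher in TAC, Rbm33 (2.77, adjusted p = 0.000161) and Mbnl2, a paralogue of Mbnl1, and 2 lower, Rbms1 (-1.87, adjusted p = 0.00477) and Ptbp3 (-1.50, adjusted p = 0.00701), where it called 10.9% of all hosts higher and 10.7% lower.

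Genes whose splicing RBM20 is known to regulate, or that were reported with it, were followed as a second list. Of 22 genes 20 hosted a circle, and limma on 8 libraries called 0 of 19, with 1 at an unadjusted p under 0.05, 12 of them positive, with a median log2 fold change of 0.61 (all hosts 0.13). The edgeR test called 2 of 15 higher in TAC and 0 lower, where it called 3.33% of all hosts higher. Dst, the cytoskeletal linker dystonin, averaged 7.69 ± 4.30 in TAC and 1.08 ± 1.07 in sham (edgeR log2 fold change 2.20 ± 0.76, adjusted p = 0.0489), and Sh3kbp1, an adaptor protein, averaged 5.92 ± 4.57 in TAC and 2.56 ± 4.38 in sham (SD, n = 4 each; edgeR log2 fold change 2.52 ± 0.84, adjusted p = 0.0375). Both calls were lost in edgeR with library totals alone, and without any 1 of TAC replicates 1, 3 and 4 or sham replicates 3 and 4. That of Dst was also lost without TAC replicate 2, and that of Sh3kbp1 without sham replicate 1. Dst had 6, 0, 2 and 2 reads in sham replicates 1 to 4, and Sh3kbp1 had 0, 2, 0 and 6. Both met the minimum count of edgeR in enough libraries only through TAC reads. On the 6 deeper libraries edgeR called 6 of 16 higher and 0 lower (10.9% of all hosts higher), with a median of 0.99 (all hosts 0.16).

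Titin (Ttn), the giant sarcomere spring and the best known target of RBM20, had the largest mean of the list in normalised reads. Its 160 circles summed to 322, 139, 332.5 and 294 in TAC replicates 1 to 4, against 69.4, 299.8, 44.7 and 55.8 in sham replicates 1 to 4, with TAC replicate 2 above 3 of the sham libraries and sham replicate 2 among the TAC libraries. The log2 fold change was 1.595 ± 0.40 with limma (adjusted p = 0.0612) and 1.17 ± 0.65 with edgeR (adjusted p = 0.259), and over the 6 libraries 2.05 ± 0.32 (edgeR adjusted p = 0.00044). The next by level were Ryr2, the calcium release channel, at 205 ± 105 in TAC and 121 ± 39.0 in sham, Pdlim5, a Z-disc adaptor, at 76.4 ± 49.1 in TAC and 26.2 ± 4.58 in sham, and Cacna1c, the L-type calcium channel, at 70.4 ± 26.2 in TAC and 36.0 ± 6.45 in sham (SD, n = 4 each). None of these 3 passed on 8 libraries with limma or edgeR, and DESeq2 called Pdlim5. Over the 6 libraries limma called all 3, where it called 12.4% of all hosts. On the same libraries edgeR called only Pdlim5 of the 3 (1.61, edgeR adjusted p = 0.00143).

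The hosts whose sums were most like those of the 3 genes across the 8 libraries were found among 1723 hosts above 0 in at least 6 libraries, by Pearson's r on the log2 scale. Rbm20 was most like Pdpk1 (0.967), Actn2 (0.962) and Crebrf (0.937), Qk was most like Elk3 (0.988), Epb41l2 (0.974) and Pdlim5 (0.967), and Mbnl1 was most like Ino80 (0.996), Acap2 (0.993) and Adk (0.988). Between themselves, Rbm20 and Qk had r = 0.817, Rbm20 and Mbnl1 0.515, and Qk and Mbnl1 0.694, and over the 6 deeper libraries 0.874, 0.605 and 0.295. These points share a library, its depth and its size factor, and the values are descriptions.

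Of the marker lists of heart cells, the cardiomyocyte and endothelial lists moved with the circles of Rbm20 and Qk. The smooth muscle and pericyte list did so over the 6 deeper libraries only. Circles of 8 of 10 cardiomyocyte markers summed to 1681, 277, 1239 and 1124 normalised reads in TAC replicates 1 to 4, against 329.5, 804, 166 and 204.1 in sham replicates 1 to 4, with Tnni3 and Pln at 0. Sham replicate 2 was the highest sham library and TAC replicate 2 the lowest TAC library here, as for the Rbm20 sum. 4 of these markers are also on the list of RBM20 targets. Circles of 5 of 8 fibroblast markers summed to 0 to 1.49 in TAC and 1.66 to 4.54 in sham, with Lum, Postn and Tcf21 at 0. Those of 8 of 8 endothelial markers summed to 26.8, 5.77, 37.05 and 51.5 in TAC replicates 1 to 4, against 12.9, 36.3, 15.7 and 19.65 in sham replicates 1 to 4. Those of 4 of 7 smooth muscle and pericyte markers summed to 14.9, 28.9, 12.35 and 22.9 in TAC replicates 1 to 4, against 10.6, 22.7, 8.28 and 11.1 in sham replicates 1 to 4, with Acta2, Tagln and Rgs5 at 0. Those of 4 of 8 leukocyte markers summed to 11.6 to 24.2 in TAC and 7.58 to 19.0 in sham, with Csf1r, Cd68, Cd3e and Cd79a at 0. The part of cell composition in the differences was not tested. In bulk tissue, fewer cells of a type and less RNA per cell cannot be told apart. Linear transcripts were not analysed here, so a change in a circle and a change in its gene cannot be told apart.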

How the data were processed

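The deposited values are a signal, back-spliced reads per circle that the authors divided by 1 size factor per library. This was read from the values: all were whole multiples of the smallest value of their library within 0.001, so reads were recovered, and the factors equalled those of DESeq2. Per the submitters' processing notes the tools included StringTie, HISAT2 and DESeq2, and the genome was mm10. The sources used here do not name the circle caller, the strand of the libraries or the versions, so overlapping and antisense genes were not separated. Per the labels' protocols, circular RNA was extracted with a kit, while the molecule is labelled total RNA.

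The main test was limma 3.58.1 (R 4.3.3) with trended variance on log2(value + 0.195), where 0.195 is the smallest value above 0. Features had to exceed 0 in 4 or more of the 8 libraries. This scale understates fold changes of low circles, and limma's SE came from the variance trend and not from each circle's own spread. The edgeR quasi-likelihood test (edgeR 4.0.16, TMM, robust, minimum count 5, minimum total 15) and DESeq2 1.42.0 were run on the recovered reads. P-values were two-sided and adjusted by Benjamini and Hochberg over all features tested, with a threshold of 0.05. Length trends were robust loess curves on log2 spliced length. The limma and edgeR fits on 8 libraries were tested on simulated reads, with the same dispersion for all circles and no length trend. The fits on fewer libraries, with length trends, with DESeq2 or with voom were not so tested. Each library is 1 of 4 hearts per group per the labels, with replicate numbers in accession order. The alternatives are given below.

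Exons came from GENCODE M21, and starts were moved by 1 to count from 1. Members, gene lists, tests and the choice to leave out 2 libraries were made with earlier results of these data known. Named circles were those tested by limma or edgeR and the 3 with the most reads per gene; the other circles were given by reads, and those described beyond that (Rbm20 exons 6-9, Qk exon 4 and the Qk intronic circle) were chosen after their values were seen. Named listed genes were those called and the 4 with the largest mean.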

Additional observations from a re-analysis of the deposited data

Results flagged for a closer look

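In 22 groups of 4 libraries, each the values of 1 circle or gene sum in 1 group, 2 held a library far from the other 3 by Dixon's ratio past its 95% critical value, which chance exceeds in about 1 group in 20. The sham group of the Rbm20 exons 2-7 circle had a ratio of 0.841, with sham replicate 2 at 13.6 normalised reads. The sham group of the Qk exons 3-4 circle had a ratio of 0.951, with sham replicate 2 at 9.09 normalised reads, which rest on 2 reads. Both are the shallow sham library, in which 1 read is worth 4.54 normalised reads.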

How the results depend on the processing

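No paired analysis was made, since each library is a separate heart and the labels pair no TAC heart with a sham heart. Of all circles, limma called 1 on 8 libraries, 0 with at least 10 reads in 4 libraries, with TMM rescaling or with the length trend removed, and 407 without the 2 shallow libraries (208 with the length trend also removed). With edgeR it was 94, with library totals alone 61, with RLE size factors 82, with the length offset 3, without the 2 shallow libraries 344 (195 with the length offset), with DESeq2 23 and with voom quality weights 236, and leaving out 1 library gave 0 to 248. Of the circles of the 3 genes, voom called 3 of 5 (32.9% of all circles), edgeR with RLE size factors 1 of 5 (11.4%), the edgeR length fit on 6 libraries 2 of 6 (17.1%) and the limma one 2 of 8 (5.97%), and leaving out 1 library gave 0 to 4.

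The Rbm20 sum was called with voom (1.93), limma on 6 libraries (2.8) and edgeR on 6 (2.40), and also in edgeR without TAC replicate 2 (1.93) or sham replicate 2 (2.09), and ran from 0.99 to 2.13 with 1 library left out. The Qk sum was called with DESeq2 (1.74), voom (1.9), limma on 6 libraries (2.8), edgeR on 6 (2.37), edgeR with library totals (1.78) and RLE (1.78), also without TAC replicate 2 (limma 2.43, edgeR 2.24) or sham replicate 2 (edgeR 1.97), and ran from 0.73 to 2.43. The Mbnl1 sum turned to 0.38 with limma on 6 libraries. Rbm20 exons 10-12 turned to -0.26 with the length trend removed, -0.55 with the offset, -0.78 and -0.74 with both length fits on 6 libraries, and -0.17 without sham replicate 2 (range -0.17 to 2.22 with 1 library left out). Rbm20 exons 2-7 turned to -1.02 and -0.02 with the length fits, -0.02 with the edgeR one on 6 libraries, -0.04 without TAC replicate 3 and -0.07 without sham replicate 1 (range -0.07 to 2.55). Qk exons 3-4 turned to 0.41 with limma on 6 libraries and 1.25 with length also removed.

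Splicing regulator hosts called were 3 of 5 with voom (20.6% of all hosts), 3 of 29 with limma on 6 libraries (12.4%), 4 of 10 with edgeR on 6 (21.6%), 1 of 5 with RLE (9.80%) and 0 to 4 with 1 library left out. Rbm20 target hosts were 1 of 19 with limma on values scaled to library totals (0.135%), 0 of 15 with edgeR on library totals (6.18%), 1 of 11 with DESeq2 (7.29%), 2 of 15 with edgeR (8.24%), 2 of 15 with RLE (9.80%), 4 of 15 with voom (20.6%), 10 of 19 with limma on 6 (12.4%), 6 of 16 with edgeR on 6 (21.6%) and 0 to 4 with 1 library left out. The causes were not tested. The median of all circles moved from 0.15 with limma to 0.84 without TAC replicate 2 and to -0.30 without TAC replicate 1. With 29 circles on 1236 reads, depth limits 21 of them to description.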
